A study of Mus musculus with 14 samples.

Results

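miR-204 and miR-211 are paralogous microRNAs (miRNAs) whose main mature strands carry the same seed, the bases that pair with target mRNAs. All arms of both precursors were taken by name from small RNA libraries of mouse dorsal root ganglia (DRG, where the cell bodies of sensory neurons lie), which gave 4 mature miRNAs (miR-204-5p, miR-204-3p, miR-211-5p and miR-211-3p) of the 1123 measured. The family was chosen by its shared seed with the strain difference of miR-211-5p in these same libraries already known. Its strain contrasts are therefore given as a description, with no test. The injury contrasts come from a fit over all miRNAs.

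The 14 libraries fall into 4 groups. They are 3 from CAST/Ei mice with an injured sciatic nerve, 3 from CAST/Ei mice with no treatment (naive), 3 from C57BL/6 mice with an injured sciatic nerve and 5 from naive C57BL/6 mice. CAST/Ei is a wild-derived inbred strain and C57BL/6 the common laboratory strain. Injured animals of both strains were adult males of 8 to 10 weeks in which the left sciatic nerve was crushed for 30 s. The labels give no age or sex for naive animals, and the sources used here do not give the time from crush to dissection or which ganglia were taken. The series design speaks of biological replicates, and no label names the animals behind them or says whether ganglia were pooled.

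The libraries hold 4007706 to 15642360 reads, of which 1 read is worth 0.0674 to 0.253 CPM (read counts put on a common library size). C57BL/6 naive libraries 4 and 5 stand apart, with 260520 and 81351 CPM of miR-218-5p, a motor neuron miRNA, against a median of 4956 CPM in the other 12 libraries. The other 12 were not uniform. They ran from 3479 CPM up to 11409 in CAST/Ei naive 3, 16420 in C57BL/6 injured 1 and 17984 in CAST/Ei naive 1. Member values and marker levels that move most when C57BL/6 naive libraries 4 and 5 are left out are given both ways. Defining miRNAs of the tissue, the neuronal miR-138-5p, the sensory neuron miR-183-5p and the glial miR-338-3p, were abundant, and the summed marker lists are given at the end.

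As background, miR-204 and miR-211 arose from the same ancestral gene and lie in introns of related channel genes, Trpm3 and Trpm1, which encode cation channels of the melastatin TRP family. miR-211 is known from the melanocyte lineage, where it is made with Trpm1 under the transcription factor MITF, and miR-204 from the retinal pigment epithelium, the lens and the choroid plexus. A mature miRNA loads into an Argonaute protein and lowers the output of mRNAs that pair with its seed, so that paralogs with the same seed are thought to share most targets.

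The mature sequences are shown because they set how well reads of the paralogs can be told apart. They are from RefSeq (GRCm38.p6), 5′ to 3′, with the seed (bases 2 to 8) in capitals.
miR-204-5p: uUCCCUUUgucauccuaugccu
miR-211-5p: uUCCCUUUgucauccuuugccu
miR-204-3p: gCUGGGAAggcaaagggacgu
miR-211-3p: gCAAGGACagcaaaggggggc
Both 5p arms are 22 nt long and identical at 21 positions. The single difference is A17U, counted from 1 at the 5′ end of miR-204-5p, and it lies outside the seed. With that base alone in capitals the pair reads as follows.
miR-204-5p: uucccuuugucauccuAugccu
miR-211-5p: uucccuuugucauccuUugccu
Both 3p arms are 21 nt long but 7 edits apart, and they carry different seeds. Of 1679 mature mouse entries in the RefSeq table, 3 hold the seed UCCCUUU, namely the family's 5p arms and miR-7670-3p, which is not among the measured names. The nearest sequence to either 5p arm outside the family, miR-7093-3p, is 7 edits away. Reads of the 5p paralogs thus differ by 1 base, and the part of miR-211-5p counts that could be misread miR-204-5p was not tested.

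The precursor hairpins are shown, with both mature arms in capitals, for where those arms lie.
miR-204: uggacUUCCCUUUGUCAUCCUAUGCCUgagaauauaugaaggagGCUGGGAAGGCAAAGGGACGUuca
miR-211: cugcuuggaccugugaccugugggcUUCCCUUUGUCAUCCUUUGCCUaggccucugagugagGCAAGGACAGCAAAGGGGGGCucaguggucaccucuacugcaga
The miR-204 entry is 68 nt long with 17 bases between its arms, and the miR-211 entry is 106 nt long with 15 bases between its arms. On GRCm38, Mir204 lies on the plus strand at chr19:22750605-22750672. GENCODE M21 places it on the sense strand of Trpm3 (ENSMUSG00000052387.16), in intron 6 of a 27-exon transcript, and it overlaps 0 exons. Mir211 lies on the plus strand at chr7:64205806-64205911, on the sense strand of Trpm1 (ENSMUSG00000030523.18), likewise in intron 6 of a 27-exon transcript and clear of any exon. The nearest miRNA genes with a measured arm are Mir3084-1, 2191.6 kb from Mir204, and Mir344g, 2223.5 kb from Mir211. Neither member thus lies in a cluster with another miRNA gene that has a measured arm, and other miRNA genes were not searched. The mRNAs of Trpm3 and Trpm1 were not measured in these small RNA libraries.

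miR-204-5p was an abundant miRNA of every ganglion library. Its level was 5518, 6763 and 8291 CPM in the CAST/Ei injured libraries 1 to 3 and 9059, 5331 and 11625 CPM in the CAST/Ei naive libraries. In C57BL/6 it was 7459, 4193 and 6757 CPM in the injured libraries and 9574, 5879, 5559, 7292 and 1503 CPM in naive libraries 1 to 5. The lowest value, 1503 CPM, is that of naive library 5, and all 4 groups overlap. Over the 14 libraries the mean was 6772 ± 2481 CPM (SD, n = 14), between 0.138% and 1.02% of all reads, and the rank among 1123 miRNAs lay between 26 and 82 with a median of 36.

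miR-211-5p, its paralog, was scarce in C57BL/6 and far more abundant in CAST/Ei. It stood at 85.3, 92.2 and 151 CPM in the CAST/Ei injured libraries and at 176, 127 and 308 CPM in the CAST/Ei naive libraries. In C57BL/6 it stood at 4.88, 10.9 and 22.8 CPM in the injured libraries and at 10.7, 16.5, 18.0, 32.4 and 13.2 CPM in the naive libraries. All 6 CAST/Ei libraries were above all 8 C57BL/6 libraries, and the lowest CAST/Ei value was 2.63 times the highest C57BL/6 value. Its rank was 169 to 278 in CAST/Ei and 385 to 586 in C57BL/6. The reads behind these values number 574 to 2430 per library in CAST/Ei and 49 to 282 in C57BL/6.

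miR-204-3p, the minor strand of the miR-204 precursor, did not separate the strains. It had 141, 132 and 109 CPM in CAST/Ei injured libraries and 133, 126 and 218 CPM in CAST/Ei naive libraries. In C57BL/6 it had 90.7, 119 and 104 CPM in injured libraries and 164, 111, 73.5, 149 and 61.9 CPM in naive libraries. The strains overlap, and the lowest value is again that of C57BL/6 naive library 5.

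miR-211-3p, the minor strand of the miR-211 precursor, was near the detection limit. It gave 7, 2 and 19 reads in the CAST/Ei injured libraries and 12, 4 and 5 reads in the CAST/Ei naive libraries, which is 0.321 to 1.28 CPM. It gave 0 reads in each of the 3 C57BL/6 injured libraries and in 4 of the 5 C57BL/6 naive libraries, with 1 read in naive library 4. Every CAST/Ei library thus held at least 2 reads and no C57BL/6 library more than 1. A library's floor, 3 reads, is worth 0.202 to 0.760 CPM, so most single libraries lie at or near it. These intervals and floors cover counting error only, since the libraries carry no molecular identifiers.

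**Figure D1:**
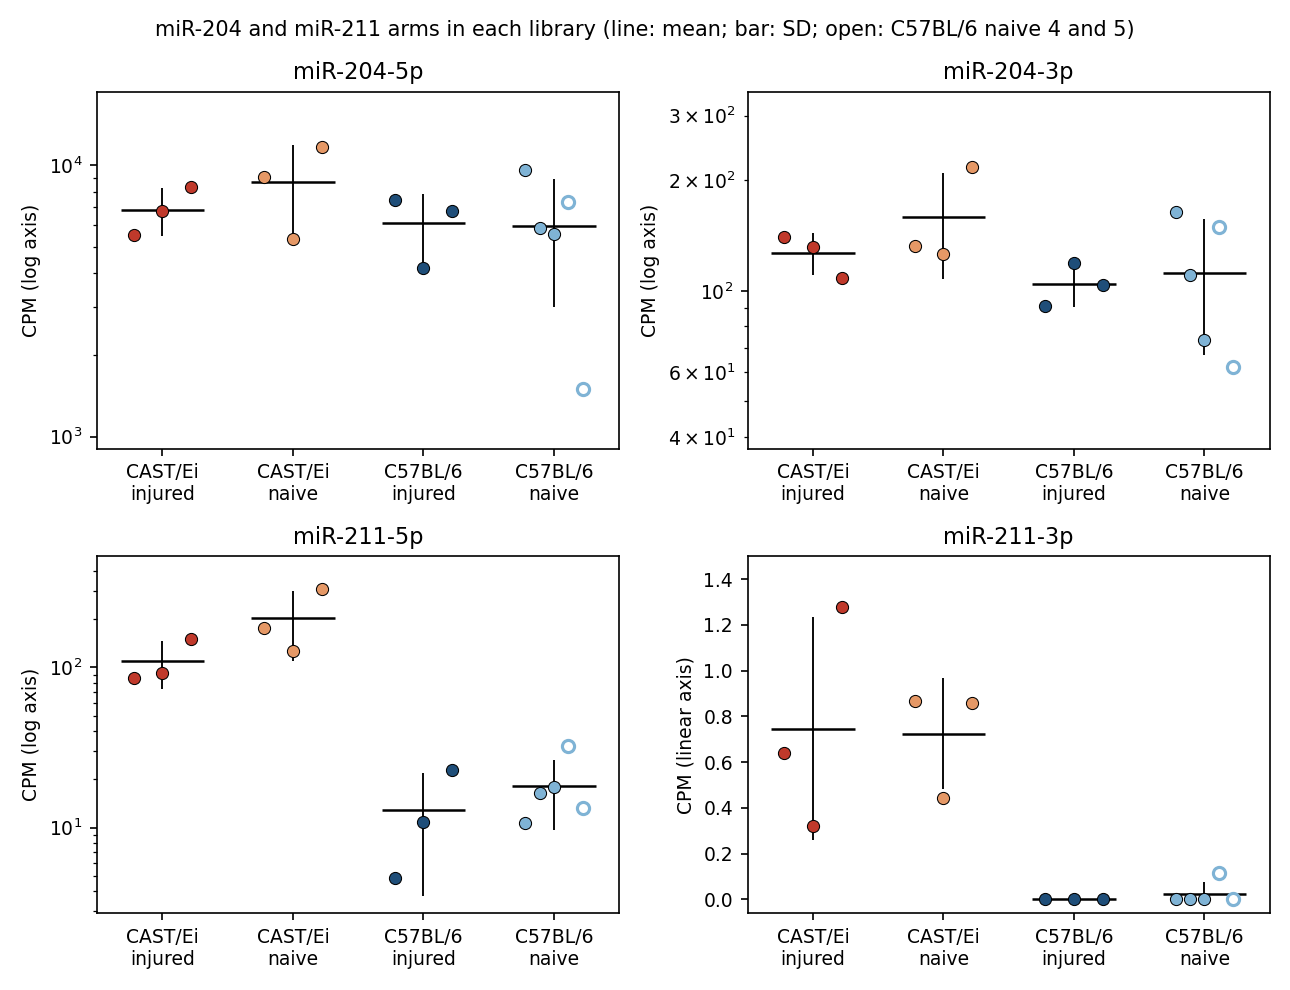
Level of each arm in CPM in the 14 libraries, by group, on log axes except for miR-211-3p, which has a linear axis; points are libraries, lines group means, bars SD, and open points C57BL/6 naive libraries 4 and 5. miR-211-5p lies at 85.3 to 308 CPM in CAST/Ei and at 4.88 to 32.4 CPM in C57BL/6, while both miR-204 arms overlap between the strains.

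Of the 4 arms, 3 passed the filter of at least 5 CPM in at least 3 libraries that left 638 miRNAs for the fit, and miR-211-3p did not, at no more than 1.28 CPM. miR-211-5p reached 5 CPM in 6 of 6 CAST/Ei and 7 of 8 C57BL/6 libraries, so it passed in either strain alone. Differences were estimated with limma on log2(CPM + 1), a scale that understates the change of scarce miRNAs, and carry a standard error (SE) or a 95% interval. A miRNA was called changed at an adjusted p under 0.05 over the 638. The RNA came from dissociated ganglia, in which more cells that make a miRNA and more of it per cell cannot be told apart.

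In injured ganglia, miR-211-5p averaged 109 ± 35.9 CPM in CAST/Ei and 12.8 ± 9.10 CPM in C57BL/6 (SD, n = 3 each), an 8.52-fold ratio of means. The fitted difference was 3.17 ± 0.50 (SE) on the log2 scale, with an interval from 2.11 to 4.24. It was the highest of the 638 differences in the CAST/Ei direction, ahead of miR-449c-5p at 1.88. miR-204-5p averaged 6858 ± 1389 CPM in CAST/Ei and 6137 ± 1719 CPM in C57BL/6 (SD, n = 3 each). Its fitted difference was 0.18 ± 0.52 (SE), and it was -0.07 without C57BL/6 injured library 2. For miR-204-3p the means were 127 ± 16.6 CPM in CAST/Ei and 105 ± 14.4 CPM in C57BL/6 (SD, n = 3 each), a fitted difference of 0.28 ± 0.36 (SE).

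In naive ganglia, miR-211-5p averaged 203.6 ± 94.0 CPM in CAST/Ei (SD, n = 3) and 18.2 ± 8.45 CPM in C57BL/6 (SD, n = 5), an 11.2-fold ratio of means. Without C57BL/6 naive libraries 4 and 5 the C57BL/6 mean was 15.1 ± 3.86 CPM (SD, n = 3) and the ratio 13.5-fold. The fitted difference over all libraries was 3.42 ± 0.45 (SE), with an interval from 2.46 to 4.37. It was again the highest of the 638 in the CAST/Ei direction, ahead of miR-547-3p at 2.64. Larger differences occurred in the C57BL/6 direction, such as miR-341-3p at -4.89 in naive and -5.90 in injured ganglia. miR-204-5p averaged 8672 ± 3165 CPM in CAST/Ei (SD, n = 3) and 5961 ± 2952 CPM in C57BL/6 (SD, n = 5). Its fitted difference of 0.70 ± 0.47 (SE) has an interval from -0.30 to 1.69, and it was 0.28 without C57BL/6 naive libraries 4 and 5 and 0.26 without naive library 5 alone. miR-204-3p averaged 159 ± 50.9 CPM in CAST/Ei (SD, n = 3) and 112 ± 45.02 CPM in C57BL/6 (SD, n = 5), with a fitted difference of 0.56 ± 0.33 (SE).

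Averaged over injured and naive ganglia, the strain difference was 3.29 ± 0.34 (SE) for miR-211-5p, 0.44 ± 0.35 for miR-204-5p and 0.42 ± 0.24 for miR-204-3p. Without C57BL/6 naive libraries 4 and 5 it was 3.39 for miR-211-5p, 0.23 for miR-204-5p and 0.38 for miR-204-3p. As part of the choice, 1 of the 3 arms fitted, miR-211-5p, passed the threshold in each strain contrast. Over all miRNAs the share passing was 3.29% in injured ganglia, 11.1% in naive ganglia and 7.99% for the average. Likewise miR-211-5p is the 1 of 3 arms whose groups do not overlap, against 35.9% of all miRNAs between the strains in injured ganglia, 16.5% in naive ganglia and 5.8% over all 14 libraries. The median difference of all 638 miRNAs was -0.06 in injured and 0.12 in naive ganglia.

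**Figure D2:**
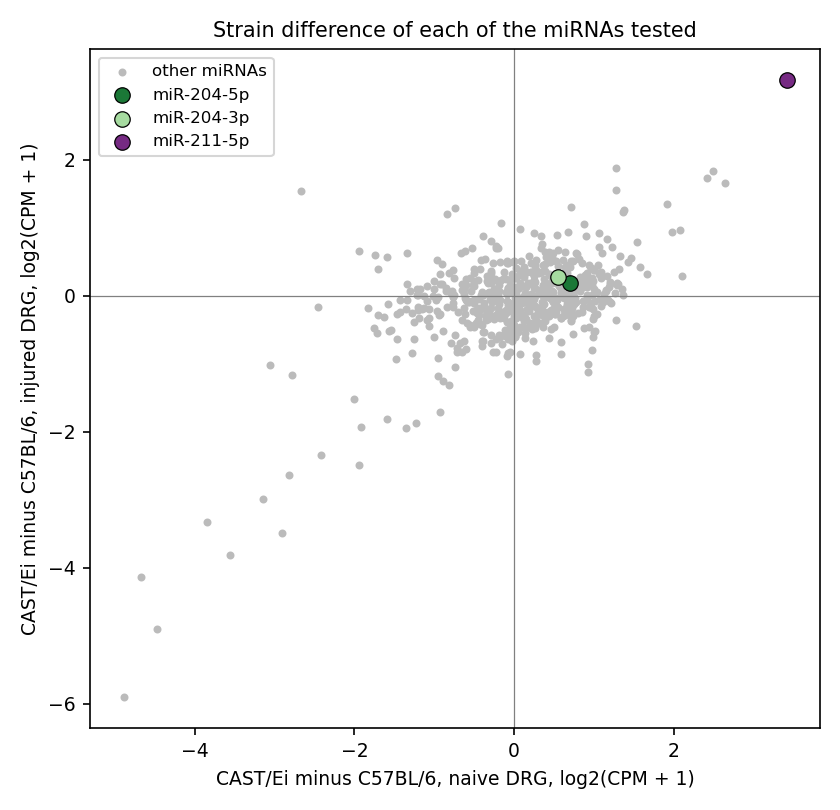
Strain difference (CAST/Ei minus C57BL/6, log2(CPM + 1)) of each of the 638 miRNAs in naive ganglia (horizontal) and injured ganglia (vertical), which share no library. miR-211-5p lies farthest in the CAST/Ei direction on both axes, at 3.42 and 3.17, while miR-204-5p at 0.70 and 0.18 and miR-204-3p at 0.56 and 0.28 lie within the main cloud.

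miR-211-3p was also higher in CAST/Ei. Summed over the group, it had 28 reads in CAST/Ei injured libraries and 0 reads in C57BL/6 injured libraries. With the C57BL/6 group set to a floor of 3 reads over the group, the CPM ratio was 8.97. That value takes the 28 reads as exact and is no lower limit, and 19 of them came from CAST/Ei injured library 3. In naive libraries it had 21 reads in CAST/Ei and 1 read in C57BL/6, a CPM ratio of 27.6 with a 95% counting interval from 4.44 to 1141. The C57BL/6 read comes from naive library 4, and without libraries 4 and 5 the naive C57BL/6 group had 0 reads.

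The paralogs were next compared within each library, where scaling between libraries cancels and, since both 5p arms are 22 nt long, read numbers need no correction for length. Per 1000 reads of miR-204-5p, there were 15.5, 13.6 and 18.2 reads of miR-211-5p in the CAST/Ei injured libraries and 19.4, 23.7 and 26.5 in the CAST/Ei naive libraries. In C57BL/6 there were 0.654, 2.60 and 3.37 in the injured libraries and 1.12, 2.81, 3.24, 4.44 and 8.76 in the naive libraries. The strains do not overlap in this ratio, and the highest C57BL/6 value, 8.76, is that of naive library 5, where miR-204-5p itself was lowest. Among single miRNAs, 5.8% of the 638 had no overlap between the strains over all 14 libraries. The ratio varied 1.95-fold among the 6 CAST/Ei libraries and 13.4-fold among the 8 C57BL/6 libraries.

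On the log2 scale the ratio of miR-211-5p to miR-204-5p was higher in CAST/Ei than in C57BL/6 by 3.13 in injured ganglia and by 2.80 in naive ganglia, or by 3.41 in naive ganglia without C57BL/6 naive libraries 4 and 5. Within CAST/Ei the ratio averaged 15.7 ± 2.28 reads per 1000 in injured and 23.2 ± 3.58 in naive libraries (SD, n = 3 each), and the groups do not overlap, with 18.2 the highest injured and 19.4 the lowest naive value. Among single miRNAs, 26.6% of the 638 likewise had no overlap between these CAST/Ei groups. Within C57BL/6 it averaged 2.21 ± 1.40 in injured (SD, n = 3) and 4.07 ± 2.88 in naive libraries (SD, n = 5), with overlap. Without naive libraries 4 and 5 the naive C57BL/6 mean was 2.39 ± 1.12 (SD, n = 3). These ratios were formed from the chosen members and carry no test.

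**Figure D3:**
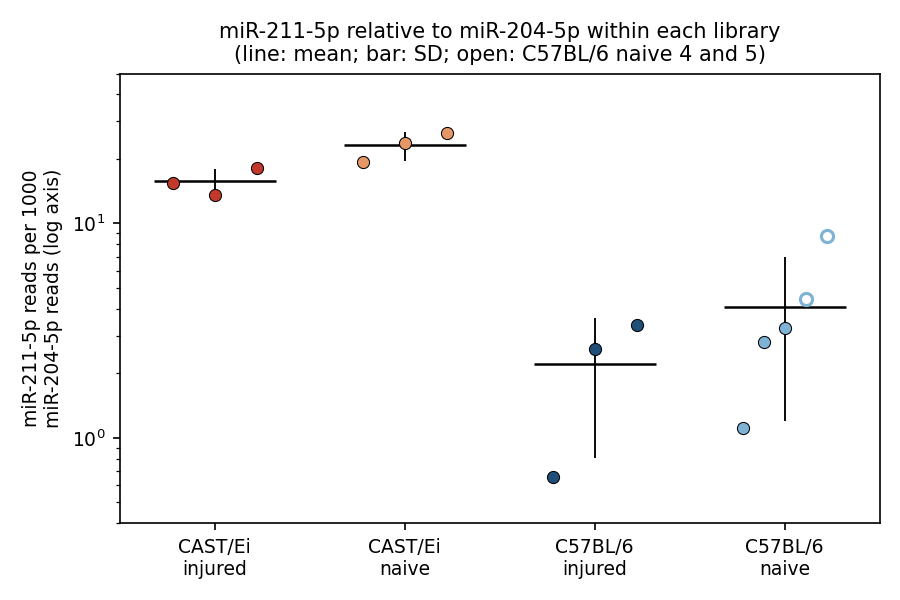
Reads of miR-211-5p per 1000 reads of miR-204-5p in each library (log axis), by group; points are libraries, lines means, bars SD, and open points C57BL/6 naive libraries 4 and 5. The 6 CAST/Ei libraries lie between 13.6 and 26.5 and the 8 C57BL/6 libraries between 0.654 and 8.76.

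Because the 5p arms share a seed, their levels were also summed. The sum averaged 6967 ± 1422 CPM in CAST/Ei injured, 8875 ± 3253 CPM in CAST/Ei naive, 6150 ± 1719 CPM in C57BL/6 injured (SD, n = 3 each) and 5980 ± 2954 CPM in C57BL/6 naive libraries (SD, n = 5). miR-211-5p made up 1.34% to 2.58% of it in CAST/Ei and 0.0654% to 0.868% in C57BL/6. The rest, and so the bulk of the reads with this seed in every library, was miR-204-5p, and the summed level overlapped between all groups compared.

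Arm use was strongly biased to 5p in both precursors. The 5p arm took 96.0% to 98.8% of miR-204 reads per library, and the pooled 3p share was 1.73% in CAST/Ei, with an exact 95% interval from 1.69% to 1.77%, and 1.78% in C57BL/6, with an interval from 1.74% to 1.82%. For miR-211 the pooled 3p share was 0.535% in CAST/Ei (49 of 9153 reads, interval 0.396% to 0.707%) and 0.0900% in C57BL/6 (1 of 1111 reads, interval 0.00228% to 0.500%). The miR-211 interval of either strain lies below that of miR-204, so the minor strand of miR-211 was a smaller part of its precursor's reads as counted. Any miR-204-5p reads counted as miR-211-5p would lower the miR-211 3p share, and their number was not tested. Reads pooled over libraries ignore the spread between them, which for miR-204 is wider than the counting interval.

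After nerve crush neither paralog passed the threshold in either strain. In CAST/Ei, miR-211-5p had 109 ± 35.9 CPM in injured and 203.6 ± 94.0 CPM in naive ganglia (SD, n = 3 each), a fitted difference of -0.84 ± 0.50 (SE, limma adjusted p = 0.746). In C57BL/6 it had 12.8 ± 9.10 CPM in injured (SD, n = 3) and 18.2 ± 8.45 CPM in naive ganglia (SD, n = 5), a fitted difference of -0.60 ± 0.45 (SE, limma adjusted p = 0.446). Without C57BL/6 injured library 1, which held 4.88 CPM, the C57BL/6 difference was -0.09. The intervals run from -1.90 to 0.23 in CAST/Ei and from -1.55 to 0.36 in C57BL/6, so these libraries do not show that the level was unchanged. Averaged over strains the difference was -0.72 ± 0.34 (SE), with an unadjusted limma p of 0.0491 and an adjusted p of 0.313.

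For miR-204-5p, the CAST/Ei means were 6858 ± 1389 CPM in injured and 8672 ± 3165 CPM in naive ganglia (SD, n = 3 each), a fitted difference of -0.29 ± 0.52 (SE, limma adjusted p = 0.938). In C57BL/6 they were 6137 ± 1719 CPM in injured (SD, n = 3) and 5961 ± 2952 CPM in naive ganglia (SD, n = 5), a difference of 0.23 ± 0.47 (SE, limma adjusted p = 0.787). That direction rests on naive library 5, the lowest of the 14. Without C57BL/6 naive libraries 4 and 5 the naive mean was 7004 ± 2231 CPM (SD, n = 3) and the difference -0.19, and without naive library 5 alone it was -0.21. The difference also turned negative with edgeR, at -0.11, and with DESeq2, at -0.07. miR-204-3p differed by -0.28 ± 0.36 in CAST/Ei (SE, limma adjusted p = 0.897) and by -0.01 ± 0.33 in C57BL/6 (SE, limma adjusted p = 0.994). In C57BL/6 this value was 0.14 on plain CPM and 0.06 with the total taken without its 3 largest miRNAs.

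Among all miRNAs 1.1% passed the threshold for injury in CAST/Ei, 3.13% in C57BL/6 and 4.23% for the average over strains, and 0 of the 3 fitted arms did in any of these. The injured and naive groups of all 3 arms overlapped in both strains, against 26.6% of all miRNAs without overlap in CAST/Ei and 14.9% in C57BL/6. The paralogs' injury differences, set side by side, were -0.84 for miR-211-5p and -0.29 for miR-204-5p in CAST/Ei, and -0.60 for miR-211-5p and 0.23 for miR-204-5p in C57BL/6. The log2 ratio of miR-211-5p to miR-204-5p was lower by 0.56 in injured than in naive CAST/Ei ganglia (difference of -0.56) and by 0.89 in C57BL/6 (difference of -0.89), or -0.28 in C57BL/6 without naive libraries 4 and 5. For scale, miR-21a-3p, the minor strand of a known injury-responsive miRNA, differed by 2.89 between injured and naive CAST/Ei ganglia.

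Whether the injury effect differs between the strains was tested in the same fit. The injury effect in CAST/Ei minus that in C57BL/6 was -0.24 ± 0.67 for miR-211-5p (SE, limma adjusted p = 0.897), with an interval from -1.67 to 1.19. It was -0.51 ± 0.70 for miR-204-5p (SE, limma adjusted p = 0.75) and -0.28 ± 0.49 for miR-204-3p (SE, limma adjusted p = 0.816). Without C57BL/6 naive libraries 4 and 5 these values were -0.43 for miR-211-5p, -0.098 for miR-204-5p and -0.20 for miR-204-3p. Leaving out 1 library at a time, the miR-204-5p value ran from -0.83 without CAST/Ei naive library 2 to -0.072 without C57BL/6 naive library 5. By limma 0 of the 638 miRNAs, or 0%, passed in this contrast, with 52 at an unadjusted p under 0.05, 1 past the adjusted threshold with edgeR and 9 with DESeq2. For miR-211-5p the sign turned when C57BL/6 injured library 3 was left out, at 0.26, and when CAST/Ei naive library 3 was left out, at 0.10.

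**Figure D4:**
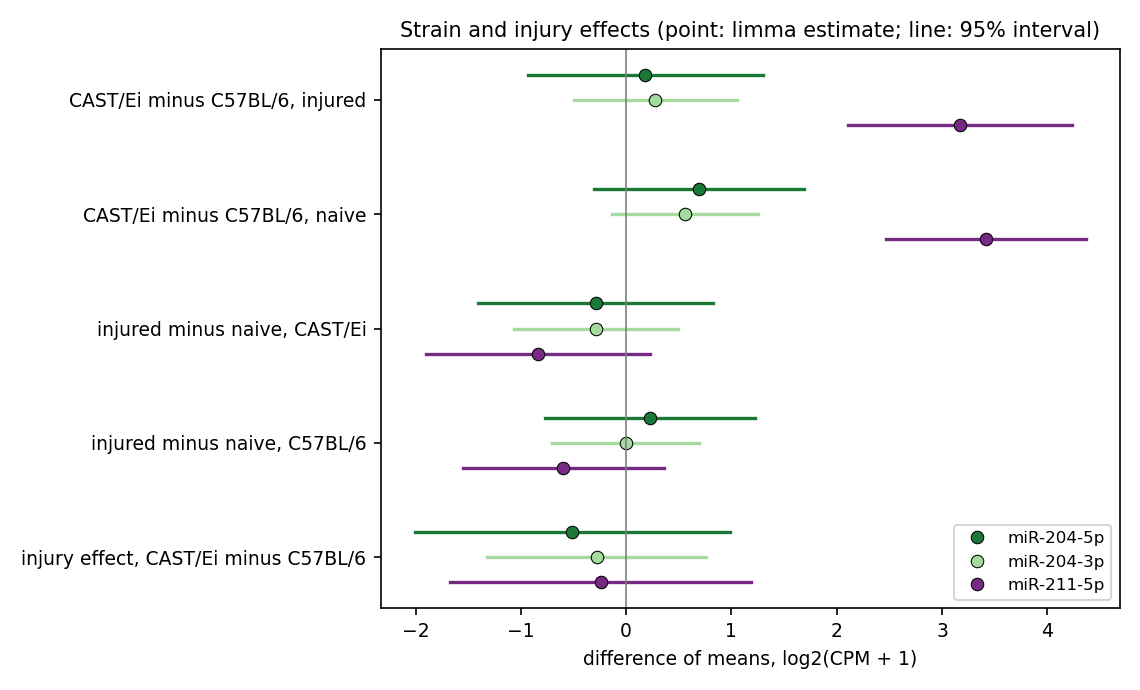
Estimated difference (point) and 95% interval (line) on the log2(CPM + 1) scale for the 3 fitted arms in 5 contrasts from limma. The strain differences of miR-211-5p lie at 3.17 and 3.42, and the injury intervals of all 3 arms include 0.

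The paralogs were also followed from library to library within a strain. Across the 6 CAST/Ei libraries Pearson's r of log2(CPM + 1) between them was 0.878 (Spearman's rho 0.829). Across the 8 C57BL/6 libraries r was 0.02 (rho -0.19), and across the 6 without naive libraries 4 and 5 it was -0.24 (rho -0.43). The difference between these values was not tested. The arms of the miR-204 precursor correlated with r of 0.555 (rho 0.429) over 6 CAST/Ei libraries and 0.716 (rho 0.571) over 8 C57BL/6 libraries, or 0.393 (rho 0.20) over the 6 without naive libraries 4 and 5. These correlations describe the libraries, which share scaling and injury status, and with 6 to 8 points each they are imprecise.

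The miRNAs most like each member over the 14 libraries were listed by r of log2(CPM + 1) among the 638. For miR-211-5p they were miR-201-5p (r 0.950, rho 0.965), miR-201-3p (r 0.881, rho 0.855), miR-190b-5p (r 0.853, rho 0.776), miR-547-3p (r 0.841, rho 0.697) and miR-23b-3p (r 0.822, rho 0.776). The 14 libraries form separate strain clusters in miR-211-5p, so these values largely restate a level that is higher in CAST/Ei. Within strains, miR-201-5p kept r of 0.636 over 6 CAST/Ei and 0.700 over 8 C57BL/6 libraries, while miR-547-3p had 0.727 in CAST/Ei and -0.60 in C57BL/6, or -0.24 in C57BL/6 without naive libraries 4 and 5. miR-201-5p itself was scarce, at 4.656 to 11.004 CPM in CAST/Ei and 0 to 1.77 CPM in C57BL/6, and miR-547-3p averaged 23.6 ± 2.62 CPM in CAST/Ei injured, 48.0 ± 5.31 in CAST/Ei naive, 6.93 ± 1.99 in C57BL/6 injured (SD, n = 3 each) and 7.24 ± 2.68 CPM in C57BL/6 naive libraries (SD, n = 5). miR-204-5p was only the 117th most like miR-211-5p, with r of 0.399 and rho of 0.319. Over the 12 libraries without C57BL/6 naive 4 and 5 the 5 most like miR-211-5p were miR-201-5p (r 0.956), miR-429-3p (r 0.927), miR-125a-3p (r 0.921), miR-190b-5p (r 0.914) and miR-547-3p (r 0.912), and 3 of these were shared with the first 5.

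For miR-204-5p the most alike were miR-338-5p (r 0.811, rho 0.569), from a precursor of myelinating glia, let-7d-5p (r 0.806, rho 0.600), miR-196a-5p (r 0.799, rho 0.793), from the Hox clusters, miR-540-3p (r 0.794, rho 0.543) and miR-652-3p (r 0.781, rho 0.371). These lean on C57BL/6 naive libraries 4 and 5. Over the 12 libraries without them the list was miR-196a-5p (r 0.767), miR-708-5p (r 0.732), miR-297a-3p (r 0.720), miR-23b-5p (r 0.708) and miR-183-3p (r 0.695), of which 1, miR-196a-5p, was shared with the first. miR-196a-5p also kept r of 0.788 over 6 CAST/Ei and 0.805 over 8 C57BL/6 libraries.

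Levels of marker miRNAs of other cell types were read beside the strain difference, as summed CPM per library. The choroid plexus and ciliated epithelium list, led by miR-34b-5p and miR-34c-5p, had 6 of 7 members measured and summed to 227 to 443 CPM in CAST/Ei and 135 to 398 CPM in C57BL/6. Its miR-449a-5p and miR-449c-5p, known from multiciliated cells, were higher in CAST/Ei, as was miR-211-5p. miR-449a-5p averaged 137 ± 29.2 CPM in CAST/Ei injured, 115 ± 33.97 CPM in CAST/Ei naive, 40.7 ± 10.8 CPM in C57BL/6 injured (SD, n = 3 each) and 25.4 ± 13.4 CPM in C57BL/6 naive libraries (SD, n = 5), and averaged over injury status it was higher in CAST/Ei by 2.08 (limma adjusted p = 0.00396). miR-449c-5p was higher by 1.58 (limma adjusted p = 0.00297), while the median of the 6 members was -0.14, against 0.03 over all 638 miRNAs. The other measured members, the arms of miR-34b and miR-34c, were all lower in CAST/Ei in injured ganglia, at -0.48 to -0.12. In naive ganglia miR-34b-5p was higher in CAST/Ei, at 0.22, and the rest of those arms were lower, at -0.55 to -0.19. With C57BL/6 naive libraries 4 and 5 left out, the limma differences were 1.79 for miR-449a-5p (adjusted p = 1.23e-05) and 1.599 for miR-449c-5p (adjusted p = 0.00278). The part of such cells in the miR-211-5p difference was not tested.

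Of the other lists, the 5 endothelial and mural miRNAs, led by miR-126a-3p and miR-145a-5p, summed to 34464 to 41874 CPM in CAST/Ei and 23630 to 31454 CPM in C57BL/6 without overlap, a 1.33-fold ratio of means against 9.68-fold for miR-211-5p over the same libraries. The remaining lists overlapped between the strains. Myelinating glia (miR-338-3p, miR-338-5p) summed to 30720 to 42868 CPM in CAST/Ei and 8044 to 45396 CPM in C57BL/6, and neuronal miRNAs (miR-138-5p, miR-218-5p) to 100523 to 153013 CPM in CAST/Ei and 101780 to 398945 CPM in C57BL/6. The retina and sensory neuron list (miR-183-5p, miR-182-5p) summed to 16293 to 24619 CPM in CAST/Ei and 16788 to 35376 CPM in C57BL/6. Epithelial miRNAs (miR-203-3p, miR-200a-3p) summed to 271 to 384 CPM in CAST/Ei and 217 to 1591 CPM in C57BL/6, and the hepatocyte miRNA miR-122-5p ranged from 11.7 to 39.8 CPM in CAST/Ei and from 8.63 to 661 CPM in C57BL/6. Several of these C57BL/6 extremes are those of naive libraries 4 and 5. In the other 6 C57BL/6 libraries the epithelial list summed to 217 to 290 CPM, miR-122-5p reached 8.63 to 37.7 CPM, the neuronal list 101780 to 141585 CPM, the glial list 18222 to 45396 CPM and the sensory neuron list 16788 to 30380 CPM. The lists that overlapped over all libraries also overlapped without these 2, and the endothelial and mural list stayed apart, at 24236 to 31454 CPM in those C57BL/6 libraries.

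Fibroblast and meninges miRNAs (miR-199a-3p, miR-214-3p) summed to 2805 to 3579 CPM in CAST/Ei and 2470 to 5084 CPM in C57BL/6. Leukocyte miRNAs (miR-223-3p, miR-142-3p) summed to 2796 to 5816 CPM in CAST/Ei and 4008 to 7536 CPM in C57BL/6, erythrocyte miRNAs (miR-451a, miR-144-3p) to 7593 to 13361 CPM in CAST/Ei and 6903 to 26343 CPM in C57BL/6, and skeletal muscle miRNAs (miR-1a-3p, miR-133a-3p) to 6359 to 11363 CPM in CAST/Ei and 5488 to 15996 CPM in C57BL/6. Without naive libraries 4 and 5 the C57BL/6 sums ran from 2470 to 3895 CPM for fibroblast, 10073 to 26343 CPM for erythrocyte and 8868 to 13911 CPM for muscle miRNAs. In the averaged strain contrast 2 of the 6 ciliated and 2 of the 6 leukocyte miRNAs passed the threshold, the ciliated ones higher and the leukocyte ones lower in CAST/Ei, and 0 members of the other lists outside the family. The leukocyte members were miR-150-5p at -2.04 and miR-511-3p at -1.06. In the fit that leaves out C57BL/6 naive libraries 4 and 5 these 4 passed again, and so did 9 more. Over all 638 miRNAs, 100 passed in that fit, against 51 with all 14 libraries. Of the 7 epithelial miRNAs, 3 that come from 1 cluster were then higher in CAST/Ei. miR-429-3p was higher by 1.73 (limma adjusted p = 8.22e-06). miR-200b-3p was higher by 1.44 (limma adjusted p = 0.00278) and miR-200a-3p by 1.32 (limma adjusted p = 0.00293). The epithelial list did not rise as a whole with all 14 libraries. There the averaged strain differences of its 7 members ran from -0.56 to 1.30. Their median was 0.28, against 0.03 over all miRNAs fitted. The mean summed level of the epithelial list in CAST/Ei was 0.73 times that in C57BL/6 over the 14 libraries. Without C57BL/6 naive libraries 4 and 5 it was 1.30 times that in C57BL/6, and the strains overlapped both ways. The rest of the 9 were 3 of 8 neuronal and 2 of 5 endothelial and mural miRNAs, higher in CAST/Ei by 0.40 to 0.87, and 1 muscle miRNA, miR-1a-3p, at -0.39. The part of epithelial cells in the miR-211-5p difference was not tested. The list for pigment cells, the lineage best known for miR-211, held only the 4 arms of the family, so no marker of that lineage independent of them was read.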

How the data were processed

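RNA of dissociated ganglia was extracted with the miRVana kit and sequenced as Ion Total RNA-Seq libraries, per the labels' protocols. Reads were aligned with Bowtie2, per the submitters' processing notes. The sources used here give no miRNA release, genome build or sequencing batch. The authors deposited 1 signal value per mature miRNA and library. These values sum to 867581 to 1311857 per library, and 100% of them are whole numbers of reads, within 1e-06 reads, once divided by what 1 read is worth. Whole reads were thus recovered, and TMM factors computed from them equal the deposited scaling to within 1e-05, so the deposited signal is CPM on TMM-scaled library sizes. The recovery was held least certain for C57BL/6 injured library 1, where 1 read is worth 0.0996 CPM, and edgeR was also run without it. The design had assumed plain CPM, and the same test was kept.

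A minimum of 5 CPM in 3 or more libraries left 638 miRNAs, which were fitted with limma-trend (R 4.3.3, limma 3.58.1) on log2(CPM + 1), with 1 mean for each of the 4 groups, over all 14 libraries. Two-sided p-values were adjusted by the Benjamini-Hochberg method over the 638 within each of 7 contrasts. edgeR 4.0.16 (quasi-likelihood) and DESeq2 1.42.0 on the recovered reads, other scalings and filters, other pseudocounts, fits of only the groups compared, leaving out libraries and a replicate block were alternatives. In simulated data for the naive strain contrast, 24% of 200 miRNAs changed 2-fold and 100% of 195 changed 8-fold were recovered.

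The members, the marker lists and the tests were chosen with earlier results of these data known. Beside the members, the text names by rule the 5 miRNAs most correlated with each 5p arm and the 2 most abundant of each marker list. Members of the marker lists past the threshold with or without C57BL/6 naive 4 and 5 (miR-449a-5p, miR-449c-5p, miR-150-5p, miR-511-3p, miR-429-3p, miR-200a-3p, miR-200b-3p and miR-1a-3p) were named after their values were seen, and the lists were read without those libraries as a choice made after seeing the data. The miRNAs next to miR-211-5p in the strain ranking, miR-341-3p and miR-21a-3p were likewise named after their values were seen. Where nothing says that libraries come from separate animals, p-values measure the spread between libraries.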

Additional observations from a re-analysis of the deposited data

Results flagged for a closer look

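Among the 5 C57BL/6 naive libraries, 8 quantities of the family were screened for a library far from the others by Dixon's criterion (gap over range above 0.71), which flags about 1 in 20 groups by chance. It picked out 3, of which 2 rest on the same single read, where 4 equal values give a gap over range of 1 by construction and that chance rate does not apply.

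miR-211-3p stood at 0.115 CPM (1 read) in C57BL/6 naive library 4 and at 0 in the other 4. The same read sets the 5p share of miR-211 in that library to 99.6%, against 100% in the others.

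The 5p share of miR-204 was 96.0% in C57BL/6 naive library 5, with an exact 95% interval from 95.6% to 96.5%, and 98.0% to 98.7% in the other 4, a gap over range of 0.737. That library also holds the lowest miR-204-5p level of the 14, at 1503 CPM, and 81351 CPM of miR-218-5p. The part of the sample's make-up in this share was not tested.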

How the results depend on the processing

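The strain differences of miR-211-5p, on which the family was chosen and which carry no test, ranged over 27 alternatives from 2.67 to 3.68 in injured and from 3.07 to 3.71 in naive ganglia, and over 26 from 2.95 to 3.55 for the average. Its injury differences passed under none (-1.13 to -0.49 in CAST/Ei, -1.10 to -0.09 in C57BL/6), and for the average over strains the adjusted p lay between 0.097 and 0.581.

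The miR-204-5p injury difference in C57BL/6 changed sign with edgeR (-0.11), DESeq2 (-0.070), without C57BL/6 naive 4 and 5 (-0.19), with the replicate block (-0.19, by the loss of those same libraries), with edgeR without C57BL/6 injured 1 (-0.25), and ran from -0.21 to 0.48 leaving out 1 library at a time. For miR-204-3p that difference was 0.14 on plain CPM, 0.064 without the 3 most abundant miRNAs in the total, and -0.19 to 0.16 leaving out 1 library. Averaged over strains, the injury difference of miR-204-5p was 0.18 on plain CPM, 0.12 without the top 3, and -0.25 to 0.10 leaving out 1 library, and that of miR-204-3p 0.059 and 0.0086 with the same scalings. Leaving out 1 library gave -0.070 to 0.35 for the miR-204-5p strain difference in injured ganglia and -0.75 to 0.26 for the difference of the miR-211-5p injury effects. Plain CPM shifts the median of all miRNAs by 0.24 for injury in CAST/Ei and 0.14 in C57BL/6.

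Counts past the threshold over all miRNAs moved more. With no filter, 89 of 1123 miRNAs passed for the averaged strain contrast, where the main fit gave 51 of 638 (7.99%). At 20 CPM, which left 471 miRNAs, 8 passed for strain in injured, 37 in naive ganglia and 22 averaged. These filters change the number of miRNAs tested along with the count. edgeR gave 32 for injury in C57BL/6 and 1 for the difference of injury effects, or 5 for injury in C57BL/6 and 17 averaged without C57BL/6 injured 1. DESeq2 gave 15 for injury in CAST/Ei, 79 in C57BL/6, 118 for strain in naive ganglia, 9 for the difference of injury effects, 48 for averaged injury and 79 for averaged strain. Fitting only the groups compared gave 3 for injury in C57BL/6, 105 for strain in injured and 21 in naive ganglia. Without C57BL/6 naive 4 and 5 there were 17 for injury in CAST/Ei, 36 for strain in injured ganglia, 55 for averaged injury and 100 for averaged strain. Leaving out 1 library gave 3 to 10 and 6 to 70 for injury in CAST/Ei and C57BL/6, 15 to 25 and 33 to 148 for strain in injured and naive ganglia, 0 for the difference, 15 to 34 for averaged injury and 33 to 72 for averaged strain. The cause of these shifts was not tested. Of the 5 miRNAs most like each 5p arm, 1 for miR-204-5p and 3 for miR-211-5p were shared over 12 libraries.

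Groups share replicate numbers, but same-numbered libraries correlated with r of -0.19 to 0.56 (median 0.106, 10 of 18 pairs over 0.1), and a library's own number was best in 19 of 36 cases. For libraries of different numbers r was -0.48 to 0.29 (median -0.041, 8 of 36 pairs over 0.1). Same-numbered libraries thus tended to deviate together, but not in every pair, and no label says what a number marks, so the block was kept as an alternative. Numbers 4 and 5 occur once each, so the replicate block also drops C57BL/6 naive 4 and 5 from the estimates. With it, 21 passed for injury in CAST/Ei, 37 in C57BL/6, 36 for strain in injured and 111 in naive ganglia, 59 for averaged injury and 121 for averaged strain, against 17, 29, 36, 91, 55 and 100 without those libraries and without the block. Depth limits miR-211-3p, with at most 1 read in each C57BL/6 library.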
